A study of Drosophila melanogaster with 3 samples.

Results

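The regions described are 4972 weak but reproduced summits of Zen-GFP chromatin immunoprecipitation in the early *Drosophila melanogaster* embryo. They were taken from a list of 30000 peak summits that the authors called on 3 libraries pooled. A summit is the base of highest signal within a peak. Each of the 4972 lies outside the IDR set, the 7405 pooled peaks that the authors kept by the irreproducible discovery rate, and each has a summit within 100 bp in the own peak list of all 3 libraries. They make up 22.0% of the 22594 pooled summits outside the IDR set on the 6 main chromosome arms (exact 95% interval 21.5 to 22.6%) and 16.6% of the 29999 pooled summits on these arms. The other 17622 summits outside the IDR set, which lack a match in at least 1 library, are called weak unreproduced. A match needs a summit in that library's own peak list, so the name does not mean that signal was absent there. The label of these regions fits their positions in the files, since every member has the 3 matches, but "reproduced" refers to position within 100 bp and to no test.

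All 3 libraries are biological replicates of a single group. Whole embryos of mixed sex, 0 to 4 h old, came from a transgenic line that stably carries zen with GFP fused to its C terminus, and an antibody against GFP pulled down chromatin sheared by sonication to 200 to 800 bp. The sources used here do not give the promoter of the transgene, the peak caller or the aligner. No library from embryos without the tagged protein was analysed here, so binding by Zen and chromatin recovered without it cannot be told apart. The lists hold no read counts, and the depth of each library is therefore unknown.

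Zen is a homeodomain transcription factor of the dorsal side of the embryo. It acts downstream of the BMP ligand Dpp and is needed for the amnioserosa, an extraembryonic tissue. Peaks in early embryo chromatin often lie at enhancers opened by the pioneer factor Zelda or at promoters of broadly active genes, where DREF, BEAF-32 and the Motif 1 binding protein recognise their own core promoter motifs. The irreproducible discovery rate compares peak ranks between replicates and keeps peaks down to the rank at which the ranks stop agreeing, so a peak below that limit can still have been found in every replicate.

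The sequences below are examples of DNA under these summits. Most were picked because they hold a motif, so they do not show how common the motifs were. Each is the plus strand of the Release 6 (dm6) genome in RefSeq, 75 bp on either side of a summit, and capitals mark exact matches on either strand to TAATTA and TAATGA (homeodomain), CAGGTA (Zelda), TATCGATA (DREF and BEAF-32, a palindrome) and GGTCACAC (Motif 1 binding protein). The first 8 were chosen after their values were seen, from the best ranked members that hold a given motif in a window free of annotated UTR, over 500 bp from a start for the first 4 and within 500 bp for the next 4. An intronic member of *CG42342*, the gene with most members, and an intergenic member whose nearest start is 3032 bp away at *CG43880* show the Zelda motif. Intronic members of *gukh*, which encodes a partner of the scaffold protein Discs large, and of *Eip75B*, an ecdysone-induced nuclear receptor gene, show the homeodomain core.
*CG42342* intron, chr3R:16526587-16526737: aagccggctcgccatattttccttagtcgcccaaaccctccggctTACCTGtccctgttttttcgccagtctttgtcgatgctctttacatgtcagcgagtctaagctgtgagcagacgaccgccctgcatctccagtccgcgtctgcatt
*CG43880* downstream, chr3L:7943215-7943365: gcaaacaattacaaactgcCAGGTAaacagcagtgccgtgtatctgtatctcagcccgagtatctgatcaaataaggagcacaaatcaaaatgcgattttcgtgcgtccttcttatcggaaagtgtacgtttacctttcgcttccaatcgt
*gukh* intron, chr3R:18993738-18993888: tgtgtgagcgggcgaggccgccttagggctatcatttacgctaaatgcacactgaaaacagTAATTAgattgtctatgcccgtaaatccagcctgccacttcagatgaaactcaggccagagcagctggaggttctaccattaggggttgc
*Eip75B* intron, chr3L:18002275-18002425: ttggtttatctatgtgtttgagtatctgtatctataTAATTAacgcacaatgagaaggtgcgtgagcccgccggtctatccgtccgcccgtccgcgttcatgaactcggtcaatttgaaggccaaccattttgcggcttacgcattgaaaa

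The next set shows promoter members with TATCGATA or GGTCACAC, which were in only 3.28% and 2.88% of all members within 100 bp of the summit. The summits lay 78 bp upstream of *Remo*, 456 bp upstream of *Agpat1*, a gene for an acyltransferase of phospholipid synthesis, 88 bp upstream of *bun*, which encodes a leucine zipper protein of the TSC-22 family, and 84 bp upstream of *CG7326*. The *Agpat1* window holds the DREF and BEAF-32 motif at 2 places.
*Remo* upstream, chrX:13287898-13288048: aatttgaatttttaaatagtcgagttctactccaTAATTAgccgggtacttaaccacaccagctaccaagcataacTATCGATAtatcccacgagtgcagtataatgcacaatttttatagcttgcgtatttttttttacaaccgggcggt
*Agpat1* upstream, chrX:12764735-12764885: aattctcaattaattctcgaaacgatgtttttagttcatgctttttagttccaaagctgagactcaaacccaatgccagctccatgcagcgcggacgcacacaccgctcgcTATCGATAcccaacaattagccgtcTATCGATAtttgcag
*bun* upstream, chr2L:12546624-12546774: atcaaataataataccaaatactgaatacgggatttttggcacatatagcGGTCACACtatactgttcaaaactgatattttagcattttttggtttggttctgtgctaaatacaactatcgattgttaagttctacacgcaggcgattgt
*CG7326* upstream, chrX:18863785-18863935: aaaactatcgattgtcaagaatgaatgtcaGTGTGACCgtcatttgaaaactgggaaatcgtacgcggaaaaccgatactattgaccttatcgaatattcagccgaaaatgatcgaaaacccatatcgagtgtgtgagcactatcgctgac

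The last pair comes from members picked for their rank or gene rather than their motifs, and neither window holds any of the 5 motifs. The windows at *bowl*, *D*, *CG4382* and *Mes2*, picked in the same way and not printed, held none of them either. The *peb* member, upstream of a zinc-finger gene of the amnioserosa, was among the 10 best placed across libraries. The *sc* member falls in the coding sequence of a proneural gene whose territory has no IDR summit.
*peb* upstream, chrX:4617170-4617320: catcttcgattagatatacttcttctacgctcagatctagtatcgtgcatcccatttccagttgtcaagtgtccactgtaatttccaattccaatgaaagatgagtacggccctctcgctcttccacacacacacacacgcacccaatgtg
*sc* coding, chrX:396623-396773: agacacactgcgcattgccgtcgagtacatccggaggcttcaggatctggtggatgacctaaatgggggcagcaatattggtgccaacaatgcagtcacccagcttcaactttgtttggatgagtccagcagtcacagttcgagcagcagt

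Members were chosen by the pooled signal value and by the positions of summits in the 3 libraries, so the following values describe them and test nothing. The members ranked from 7406 to 29832 in the pooled list by the authors' signal value, with a median rank of 11381 (quartiles 9180 and 14377). Weak unreproduced summits had a median rank of 21046.5. The signal value is a score on the caller's own scale, and the members held 74.9 to 240.3 of it with a median of 169, against medians of 100.2 in weak unreproduced summits and 392 in the IDR set. The 3 summits just below the IDR limit were all members, with signal values of 240.30, 240.29 and 240.27. The 3 IDR summits just above it had 240.35, 240.31 and 240.30, and 1 of these 3 had no match within 100 bp in replicate 3. The rank limit therefore separates summits of nearly the same signal.

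The share of summits found in all 3 libraries fell steadily down the pooled list. It was 66.9% at ranks 7406 to 10000, 52.0% at 10001 to 12000, 38.2% at 12001 to 15000, 17.1% at 15001 to 20000 and 1.95% beyond rank 20000. Within the IDR set it was 95.4%, 89.0% and 80.4% in successive ranges of rank. A match also requires that the library's own list reaches down to the summit. The poorest library ranks of members were 29998, 29993 and 29955 in replicates 1, 2 and 3. How far the ends of these lists shape the fall was not tested. Multiplying the match shares of the 3 libraries gave 66.7%, 53.6%, 41.3%, 23.8% and 6.33% in the same 5 weak ranges, so in the 4 lower ranges fewer summits were matched in all 3 than the product. Over all weak summits, 1492 had a match in none of the libraries, 7387 in 1, 8743 in 2 and 4972 in all 3. Replicate 1 held a match for 65.8% of weak summits, replicate 2 for 55.8% and replicate 3 for 54.5%.

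**Figure D1:**
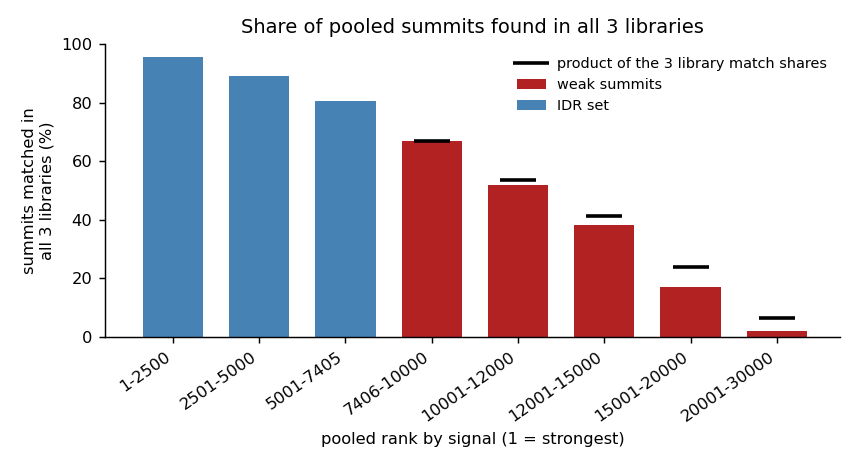
Percent of pooled summits on the 6 arms with a summit within 100 bp in all 3 libraries (vertical axis), by range of pooled rank (horizontal axis), for weak summits (red) and the IDR set (blue). Black marks give the product of the 3 libraries' match shares; the bars fall to 66.9% just below the IDR limit and to 1.95% in the last range.

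Matches lay within 100 bp by the rule, and 2330 members had all 3 of them within 50 bp. The median distance to the matched summit was 16 bp in replicate 1, 20 bp in replicate 2 and 28 bp in replicate 3, against 13, 15 and 17 bp for the IDR set. At the edge of the rule, 443 members had a largest match distance of 91 to 100 bp, and 378 weak summits missed the limit by at most 10 bp. In the libraries' own lists the members ranked low too, with medians of 13555, 13799 and 13001.5 in replicates 1, 2 and 3. Only 8 members were among the first 7405 summits of all 3 libraries, 147 were in 2 and 1270 in 1, and 3547 (71.3%) were in none.

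Some members lay close to stronger peaks. In all, 254 members (5.11%) lay within 250 bp of an IDR summit, none nearer than 199 bp, and 17 shared an interval with one. Whether the rest were separate peaks was not tested. Between 250 and 500 bp only a few more were found, since the count rose to 274 within 500 bp and 855 (17.2%) within 1000 bp. At the far end, 1887 members (38.0%) lay over 5000 bp from any IDR summit, and the median distance was 3325 bp. Weak unreproduced summits had a like spacing, with a median of 3278 bp, 7.12% within 250 bp and 37.1% over 5000 bp.

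The 10 members with the best placing across libraries, ordered by their poorest library rank, included 7 within 250 bp of an IDR summit. The first lay 84 bp upstream of *bowl*, an odd-skipped family zinc-finger gene, with ranks of 588, 2263 and 2807 in replicates 1, 2 and 3 but 8109 in the pooled list, and 221 bp from an IDR summit. The *peb* member ranked 3631, 5056 and 3379 in the libraries and 8659 pooled, 199 bp from an IDR summit. A member 3895 bp downstream of the start of *D*, the Sox gene Dichaete, ranked 3870, 3860 and 6968 in the libraries and 17424 pooled. The library summits behind these ranks could lie well off the member's own, at 90, 23 and 16 bp for *bowl*, 95, 0 and 87 bp for *peb* and 91, 92 and 70 bp for *D* in replicates 1, 2 and 3. Of the 10, the member farthest from an IDR summit, at 4458 bp, lay 29 bp upstream of *asp*, which encodes a spindle pole protein, with ranks of 7068, 7745 and 7318. Its pooled rank was 7598. The other 6 of the 10 lay at *MFS15*, *CG10098*, *CG12420*, *CG4382*, *jar* (the myosin VI gene) and *NTPase*, at 199 to 617 bp from an IDR summit.

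Most members lay in introns or between genes, and fewer of them were at starts than in the IDR set. Within 500 bp of an annotated transcript start lay 1586 members (31.9%, exact 95% interval 30.6 to 33.2%), 23.9% of weak unreproduced summits and 46.8% of IDR summits. Intervals of this kind cover counting error only. Introns held 43.9% of members, intergenic DNA 36.8%, 5' UTRs 9.49%, coding sequence 4.42%, 3' UTRs 2.74% and other exons 2.70%. In weak unreproduced summits coding sequence held 10.4% and intergenic DNA 31.4%, and in the IDR set they held 1.39% and 46.6%. The members thus lay between the other sets in both classes.

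Each share was taken again at the libraries' own matched summits, and the differences were tested over the 3 libraries by an exact two-sided sign-flip permutation test. With 3 libraries this exact test cannot go below p = 0.25, and over the 105 differences computed the smallest adjusted p was 0.302, so no difference here could pass a threshold of 0.05. Members are the same places in each library, and the spread between libraries therefore measures mainly where the summit was set. At starts the members minus the IDR set came to -14.8, -14.7 and -15.1 percentage points in replicates 1, 2 and 3, a mean of -14.8 ± 0.245 (SD, n = 3, exact p = 0.25). The members minus weak unreproduced summits came to 7.41, 7.36 and 5.84 points, a mean of 6.87 ± 0.891 (SD, n = 3, exact p = 0.25). Of the 17622 weak unreproduced summits, only those matched in a library enter its value, with 9901, 7629 and 7343 library summits in replicates 1, 2 and 3. The set compared with the members thus differs between libraries. Over the pooled summits the difference was 8.01 points. All 3 libraries showed each direction. Since the members are the same places each time, neither this nor the small SD measures how far the differences would vary between independent experiments.

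**Figure D2:**
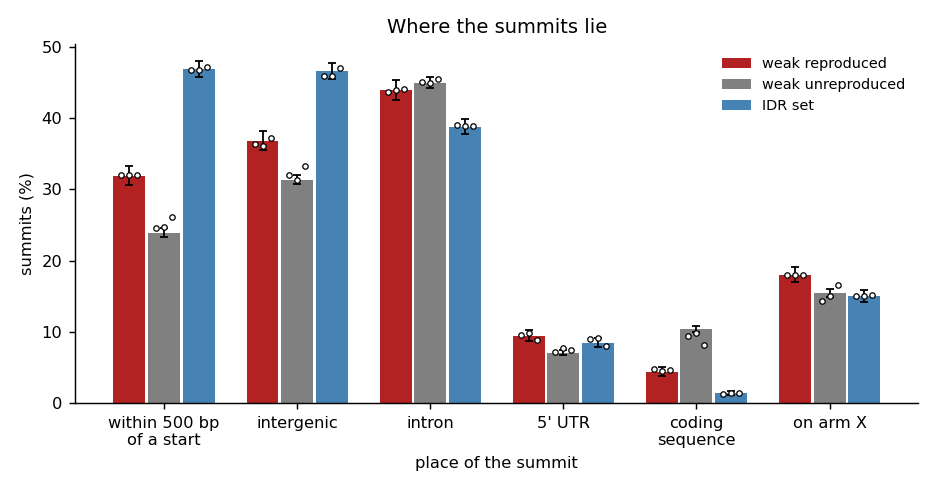
Percent of summits (vertical axis) in 6 kinds of place for weak reproduced, weak unreproduced and IDR summits. Bars are pooled summits with exact 95% intervals, and open points are replicates 1, 2 and 3 at their own summits; members are between the other sets near starts (31.9%, 23.9% and 46.8%) and highest on arm X (18.0%).

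Among summits of like rank, the excess of members over weak unreproduced summits at starts was not seen down to rank 20000. At ranks 7406 to 10000, 39.5% of members and 40.7% of unreproduced summits lay near a start. At 10001 to 12000 the shares were 33.0% and 35.5%, and at 12001 to 15000 they were 28.9% and 30.4%. The difference, members minus unreproduced, was -1.22, -2.47 and -1.58 points in these ranges (exact two-sided sign-flip permutation p = 0.75, 0.25 and 0.25 over 3 libraries). At 15001 to 20000 the shares were 21.0% and 24.98%, and beyond rank 20000 they were 24.1% of 195 members and 19.6% of unreproduced summits, so the order turned there. The share near starts itself fell with rank down to 20000 in both sets. Coding sequence depended on rank as well, with 2.31%, 2.98% and 5.06% of members and 1.86%, 2.39% and 4.26% of unreproduced summits in the first 3 ranges. These ranges were chosen after the data were seen.

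**Figure D3:**
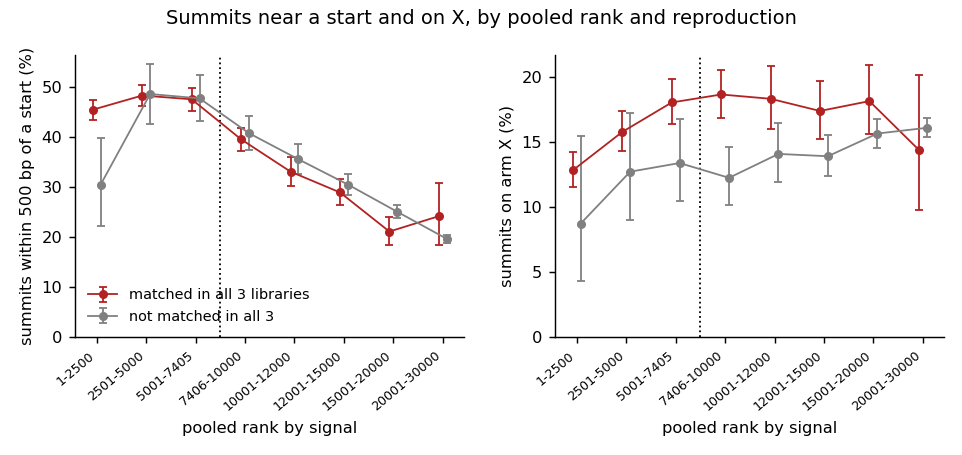
Percent of summits within 500 bp of a start (left) and on arm X (right), by range of pooled rank, for summits matched in all 3 libraries (red) and the rest (grey), with exact 95% intervals; the dotted line is the IDR limit. Near starts the lines run close together below the limit (39.5% and 40.7% in the first range, 24.1% and 19.6% in the last), and on X they are apart until rank 20000 (18.6% and 12.2% in the first range).

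At starts, the members sat mostly on the upstream side. Of the 1586 members near a start, 63.4% were upstream of the nearest one, with a median position of -32 bp relative to it, and 90.0% had a protein-coding gene there. Upstream shares were 54.2% in weak unreproduced summits and 79.8% in the IDR set, whose median position was -82.5 bp. The median distance to a start over all members was 1453 bp, against 1887.5 bp in weak unreproduced summits and 646 bp in the IDR set.

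Arm X held a larger part of the members than of the other sets. X carried 895 members (18.0%, exact 95% interval 16.9 to 19.1%), 15.4% of weak unreproduced summits and 1111 of the 7405 IDR summits. Per Mb, X had 38.0 members and the 4 large autosome arms 33.8 to 39.6. The density on X over the mean of those arms was 1.02 for members, 0.849 for weak unreproduced summits and 0.825 for the IDR set. Unlike the share near starts, this difference was present among summits of like rank. Members exceeded unreproduced summits by 6.41, 4.24 and 3.48 points at ranks 7406 to 10000, 10001 to 12000 and 12001 to 15000 (exact permutation p = 0.25 in each). Matching by position fixes the members' share on X at 18.0% in every library. A like direction in the 3 libraries is therefore no independent support for this difference. Beyond rank 20000 the order turned, with 14.4% of 195 members and 16.1% of unreproduced summits on X. A difference of this direction was also present inside the IDR set and was not particular to members. There X held 12.8%, 15.7% and 18.0% of summits matched in all 3 libraries, at ranks 1 to 2500, 2501 to 5000 and 5001 to 7405. It held 8.7%, 12.7% and 13.3% of the other IDR summits in these ranges.

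Of the 3 libraries, leaving out replicate 3 lowered the difference on X most, though leaving out a library also changes which summits are members. Of weak summits on X, 58.6% had a match in replicate 3, against 53.7% on the other arms, whereas replicate 1 matched 64.2% on X and 66.1% elsewhere and replicate 2 matched 56.5% and 55.6%. Members minus weak unreproduced summits was 2.58 points with all 3 libraries, 0.583 without replicate 3, 1.65 without replicate 2 and 2.44 without replicate 1. With a match distance of 200 bp it was 1.04 points. The part of replicate 3 in the difference on X was not tested beyond these values.

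Homeodomain and Zelda motifs were more common at the members' summits than beside them. Exact matches on either strand were counted within 100 bp of the summit and in 2 windows of the same width, 201 bp, centred 1000 bp to either side. TAATTA, the core recognised by many homeodomains, was in 16.3% of member windows, 13.4% of their flanks and 12.5% of all 201 bp windows of the 6 arms. The variant TAATGA was in 16.5% of member windows, 13.0% of flanks and 13.0% of all windows. CAGGTA was in 7.28% of member windows, 4.34% of flanks and 4.60% of all windows. The summit exceeded the flank by 3.26 ± 0.232, 3.47 ± 0.0496 and 2.82 ± 0.127 percentage points for these motifs at the libraries' own summits (SD, n = 3, exact permutation p = 0.25 each, 3 of 3 libraries).

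Rearranged motifs with the same bases did not rise over their flanks to the same extent over all members, but the rearranged homeodomain core did so near starts. The rearranged homeodomain core TAAATT was in 26.9% of member windows and 26.4% of flanks, a ratio of 1.02 beside 1.21 for the core itself. The rearranged Zelda motif CGAGTA was in 4.57% and 5.58%, a ratio of 0.818 beside 1.68 for the motif itself. In members within 500 bp of a start, TAAATT was in 31.1% of windows and 22.5% of flanks, and the core itself in 14.1% and 10.3%. Away from starts, the rearranged form was in 24.9% of windows and 28.2% of flanks, and the core in 17.2% and 14.8%. In the IDR set the ratio of the homeodomain core was 1.59 and that of its rearranged form 1.42, with a GC content of 39.2% at the summit and 43.0% in flanks. Members differed less from their flanks in GC content, 41.5% against 42.6%.

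The ratio of summit to flank was higher in the IDR set than in the members for both motifs, with CAGGTA at 1.98 and TAATTA at 1.59 there. Weak unreproduced summits had lower ratios of 1.30 for CAGGTA and 1.14 for TAATTA. Members minus weak unreproduced summits came to 1.39 points for TAATTA and 1.04 points for CAGGTA over all ranks. Within the 3 ranges of rank the differences were -0.31, 3.43 and 0.06 points for TAATTA and -0.82, -1.03 and 0.59 points for CAGGTA, without a common direction.

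**Figure D4:**
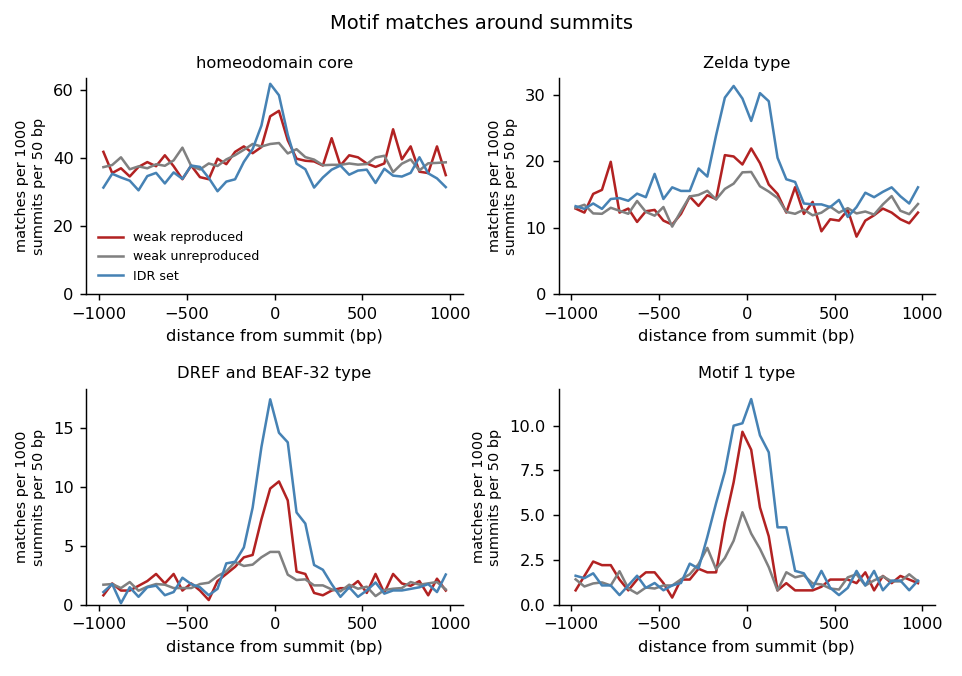
Motif matches per 1000 summits per 50 bp (vertical axis) against distance from the summit (horizontal axis, bp) for weak reproduced (red), weak unreproduced (grey) and IDR (blue) summits. In the 50 bp after the summit, members had 53.9 homeodomain core, 21.9 Zelda, 10.5 DREF and BEAF-32 and 8.65 Motif 1 matches per 1000, between or near the 44.4, 18.4, 4.48 and 3.97 of weak unreproduced summits and the 58.5, 26.1, 14.6 and 11.5 of the IDR set.

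The promoter motifs had the highest ratios of summit to flank of the 16 motifs counted. TATCGATA was in 3.28% of member windows and 0.523% of flanks, a ratio of 6.27, and GGTCACAC in 2.88% and 0.402%, a ratio of 7.15. Over all windows of the arms the shares were 0.564% and 0.430%. The IDR set had TATCGATA in 5.23% and GGTCACAC in 3.86% of its windows, and weak unreproduced summits had them in 1.45% and 1.51%. In the ranges 7406 to 10000, 10001 to 12000 and 12001 to 15000, TATCGATA was in 3.86%, 3.75% and 3.58% of members and in 4.30%, 2.39% and 2.16% of unreproduced summits. GGTCACAC was in 3.92%, 3.85% and 2.01% of members and in 3.26%, 3.75% and 2.05% of unreproduced summits of these ranges. The summit exceeded the flank at members by 2.76 ± 0.177 and 2.36 ± 0.0768 points in the libraries (SD, n = 3, exact permutation p = 0.25 each). The members of *bun*, *Remo* and *Agpat1* whose sequences are printed above carry these letters.

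Members near starts and members away from them held different motifs. TATCGATA was in 8.51% of the 1586 members near a start (135 of them) and 0.827% of the 3386 others, and GGTCACAC in 8.20% and 0.384%. This was not particular to members. In the IDR set TATCGATA was in 10.7% near starts and 0.406% away from them, and GGTCACAC in 7.55% and 0.610%. In weak unreproduced summits the shares were 4.66% and 0.440% for TATCGATA and 4.61% and 0.544% for GGTCACAC. CAGGTA was in 6.05% near starts, beside 5.64% of their flanks, and in 7.86% away from starts, beside 3.74% of flanks. TAATGA was in 11.2% near starts and 19.0% away from them, with flanks of 10.5% and 14.1%. The E-box CAGCTG was in 15.1% near starts and 9.07% away from them, with flanks of 10.3% and 8.56%. The rise of the Zelda motif at members was therefore seen away from starts, and that of the promoter motifs near them. This split was made after the data were seen, and the difference between its arms was not tested.

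The other motifs were in the following shares. GAGAG, bound by GAGA factor, was in 24.3% of member windows and 21.9% of flanks, AGATAA, the site of GATA factors, in 12.2% and 11.0%, and the T-box motif GGTGTGA in 2.05% and 1.43%. The Brinker type motif GGCGCC was in 3.96% and 3.24%, CAGCTG in 11.0% and 9.12%, the Twist-type E-box CACATG in 10.4% and 9.68%, and the TATA box TATAAA in 22.5% and 21.5%. The Bicoid-type GGATTA, in 6.92% and 7.11%, and the Caudal-type TTTATG, in 20.2% and 20.9%, were at or under their flanks. A match is a string of letters and does not show that the factor was bound.

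Of 13945 protein-coding genes, 4259 had a member in the gene body or the 2000 bp on either side, a territory in what follows. That is 30.5% of genes. Both a member and an IDR summit were in the territory of 2576 genes (18.5%), and 1683 genes (12.1%) had a member but no IDR summit. An IDR summit was in 46.8% of territories. Within 500 bp of a start, 12.7% of genes had a member, 9.95% had a member and no IDR summit there, and 29.3% had an IDR summit. A member was in the territory of 39.4% of genes with an IDR summit and 22.7% of genes without one, which was not separated from territory length. By distance, members were no closer to IDR summits than weak unreproduced summits were, with medians of 3325 and 3278 bp. Genes with a member had longer territories, with a median of 7412 bp against 5883 bp in genes without one.

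Genes that pattern the embryo often had members, mostly in territories that also held IDR summits, as most territories of these lists did. Of the dorsal ectoderm and amnioserosa list, which holds textbook genes of these tissues, 13 of 18 genes had a member. All 18 genes had an IDR summit, so each of these 13 had one as well. In the territories of this list lay 33 members. Of the Dpp pathway list 12 of 17 genes had a member, of segment polarity genes 12 of 13, of Hox genes 7 of 8, of mesoderm genes 8 of 11, of neurogenic ectoderm genes 9 of 14, of gap and head genes 9 of 14 and of pair-rule genes 4 of 9. An IDR summit was in 13, 12, 8, 9, 13, 13 and 9 territories of these lists in the same order, against 46.8% of all genes. None of the 6 cellularization genes had a member, although all 6 had an IDR summit; without replicate 1, 2 or 3 the number was 1, 1 and 2. The counts of genes with a member are to be read against 30.5% of all genes and against territory length. The median territory was 34563 bp for Hox, 27277 bp for mesoderm and 17738 bp for segment polarity genes. It was 12102 bp for the dorsal, 11566 bp for the Dpp pathway and 8580 bp for the neurogenic ectoderm list. Gap and head genes had 6908.5 bp, pair-rule genes 6533 bp, cellularization genes 4937 bp and all genes 6166 bp. Within 500 bp of a start, 12.7% of all genes had a member. The counts there were 2 of 18 dorsal, 7 of 17 Dpp pathway, 3 of 14 neurogenic ectoderm and 2 of 11 mesoderm genes. They were 5 of 14 gap and head, 2 of 9 pair-rule, 2 of 13 segment polarity, 3 of 8 Hox and none of 6 cellularization genes. In other lists they were 12 of 48 proteasome, 8 of 93 cytosolic ribosomal protein, 5 of 18 cell cycle control and 1 of 15 heat shock genes. None of 12 chromatin and pioneer factor genes, 1 of 120 receptor and 1 of 121 cuticle protein genes had one.

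**Figure D5:**
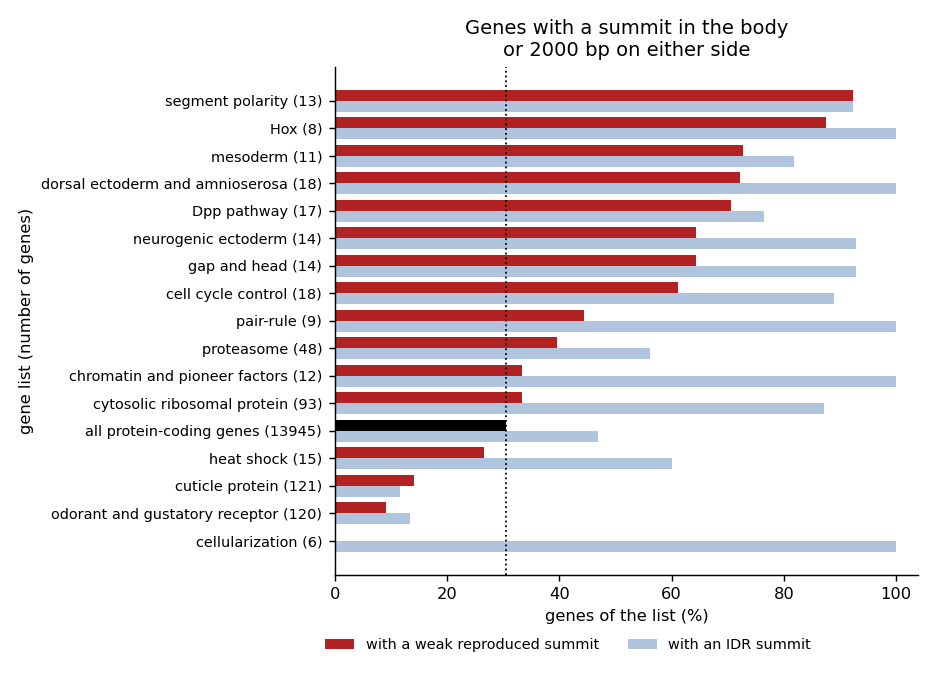
Percent of genes of each list (horizontal axis) with a weak reproduced summit (red, black for all protein-coding genes) and with an IDR summit (light blue) in the gene body or 2000 bp on either side; the number of genes is in brackets. The dotted line is the 30.5% of all protein-coding genes with a member; 12 of 13 segment polarity genes and none of 6 cellularization genes had one.

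Among dorsal genes *ush*, whose zinc-finger product acts with GATA factors, held most members, 6 beside 14 IDR summits, the best of them at the start of the neighbouring gene *lwr*. The LIM-homeodomain gene *tup* and the BMP-binding protein gene *cv-2* held 5 each, beside 3 and 8 IDR summits. The best *tup* member lay 20 bp upstream of its start, 5874 bp from any IDR summit, and ranked 8333 in the pooled list and 6741, 13939 and 11769 in replicates 1, 2 and 3. *tup* is thus a gene whose start carried a member while its IDR summits lay elsewhere.

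*zen* itself had 2 members beside 3 IDR summits. The better one lay between genes, 2956 bp downstream of the *zen* start on 3R from 6751030 to 6751445, with a TAATTA match within 100 bp of the summit, and ranked 8558 pooled and 8636, 10054 and 10639 in the replicates. The GATA factor gene *pnr* had 2 members, the better one in an intron 246 bp from an IDR summit, which ranked 329 and 760 in replicates 1 and 2 but 21846 in replicate 3. These library ranks were the farthest apart among the best members of the dorsal genes. *mirr*, *ara* and *caup*, the Iroquois homeobox genes, had 2 members each, with the best in introns at pooled ranks 10170, 12264 and 12984. *C15*, *Doc3* and *Doc1* had 2, 2 and 1. The *tld* territory had 1 member, which was the one at the neighbouring gene *asp*. *zen2*, *Ance*, *Doc2*, *egr* and *Kr* had none.

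In the Dpp pathway, *dpp*, the ligand gene, had 2 members beside 8 IDR summits, and the ligand gene *gbb* had 1. Of the genes for extracellular regulators, *sog* had 3 members and the proteoglycan gene *dally* 5. The receptor genes *tkv* and *wit* had 4 and 1, the Smad genes *Mad* and *Med* 2 each, the inhibitory Smad gene *Dad* 4 and the nuclear effector gene *shn* 3. *scw*, *tsg*, *put*, *sax* and *brk* had none. *cv*, whose product binds BMP ligands, had a member and no IDR summit, in a 5' UTR 58 bp downstream of its start, with ranks of 25045, 12241 and 12629 in replicates 1, 2 and 3.

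A member without an IDR summit was found at 4 further patterning genes. Each patterning list held at most 1 such gene. Over all protein-coding genes 12.1% had a member and no IDR summit, and 22.7% of genes without an IDR summit had a member. *btd*, a zinc-finger head gap gene, had 2, of which the better lay 42 bp upstream of its start on X from 9693936 to 9694351, with ranks of 8342, 5602 and 9821 in the replicates and 7439 pooled. Its window held a TAATTA match within 100 bp of the summit. *gsb-n*, a Pax gene of segment polarity, had 2 at pooled ranks 13094 and 14908. The mesoderm gene *Mes2* had 1 in an intron with ranks of 14100, 9689 and 17818. *sc*, a proneural gene, had 1 in coding sequence with ranks of 20975, 17411 and 25022, which *CG32816* also overlaps. The members of *cv* and *sc* were past rank 20000 in at least 1 library, whereas that of *btd* near its start was within the first 10000 in all 3.

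The lists of other functions varied, and no test compared them with the patterning lists. Of 48 proteasome genes 19 had a member (39.6%), of 93 cytosolic ribosomal protein genes 31 (33.3%) and of 18 cell cycle control genes 11 (61.1%). Of 12 chromatin and pioneer factor genes 4 had one (33.3%), and of 15 heat shock genes 4 (26.7%). Over all protein-coding genes the share was 30.5%, and the ribosomal, chromatin and heat shock shares were near it. Of ribosomal protein genes 81 had an IDR summit (87.1%), against 46.8% of all genes. A member only was in the territory of 7 of the 93, against 12.1% of all genes. Without replicate 3 the ribosomal count was 50 and without replicate 2 the heat shock count was 8, while genes with a member numbered 5789 and 5827 of all 13945 without these replicates. The best ranked members in these territories often belonged to a neighbour's start. The member in the *RpL3* territory was 14 bp upstream of *CG6689*, that of *Hsp83* 14 bp upstream of *CG14966* and that of *mod(mdg4)*, a BTB protein gene, 34 bp upstream of *aus*. By contrast, the best member of *Prosbeta7*, a proteasome subunit gene, lay in its own 5' UTR 4 bp from the start, with ranks of 9207, 8793 and 6154. The best member of the cyclin gene *CycE* was in its intron, 237 bp upstream of one of its starts and 10872 bp from any IDR summit, with ranks of 10736, 4351 and 15107.

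Chemosensory receptor and cuticle protein genes, which serve later stages, had few members. Of 120 odorant and gustatory receptor genes 11 had a member (9.17%), and of 121 cuticle protein genes 17 (14.0%), both under the 30.5% of all genes. Of these, 10 of the 11 receptor genes and 11 of the 17 cuticle genes had no IDR summit, beside 1683 of the 4259 genes with a member overall. Few genes of these lists had an IDR summit at all, 16 of 120 and 14 of 121, and 6 of those 14 cuticle genes also had a member. Without replicate 1, 2 or 3, members were in 17, 23 and 18 receptor territories. The best member in the receptor list, in the *Or46a* territory, lay in a 5' UTR of *CG18011*.

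The territories with most members were long genes. *CG42342* had 17 members, *CG32816* 16, *hth*, which encodes a TALE homeodomain cofactor of Hox proteins, 14, the zinc-finger gene *jing* 14 and *CG42238* 13. The best member of *hth* was in an intron 34521 bp downstream of the nearest start and 7262 bp from any IDR summit, and ranked 9063, 14083 and 6694 in replicates 1, 2 and 3. The best member of *CG42342*, whose sequence is printed above, ranked 1854, 4015 and 18148 in the replicates and lay 206 bp from an IDR summit.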

How the data were processed

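The files were peak lists in narrowPeak format on dm6, which give each peak's interval, summit, signal value and q-value. The authors, per the notes deposited beside the samples, called peaks for each of 3 libraries and for the libraries pooled against 1 control, and kept a set by the irreproducible discovery rate. The deposited signal value is a score of the authors' caller on a scale of its own in every list; here it served for ranks inside one list. The deposited −log10 q-value entered no test. The sources used here give no caller, aligner or version. The lists carry no counts, so no interval for depth can be given.

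Summits on the 6 arms were matched at 100 bp. Starts, exons and genes came from Ensembl release 115, with coding sequence given precedence over UTRs, then other exons, introns and intergenic DNA, and transposable element records left out of the genes. Sequence came from the RefSeq copy of Release 6. Shares have exact (Clopper-Pearson) 95% intervals. Differences were recomputed at each library's own matched summits and tested by an exact two-sided sign-flip permutation test over 3 libraries, with Benjamini-Hochberg adjustment over 105 differences. The analysis used Python 3.11.15, numpy 2.4.6, pandas 2.3.3 and scipy 1.17.1. The matching, the start distances, the motif search and the sign-flip test were checked on simulated input, and the other steps were not.

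The members and lists were chosen with earlier results of these data known. The genes named are the 10 members with the best poorest library rank, all genes of the dorsal list, patterning genes with a member and no IDR summit, the 5 genes with most members and, in other lists, genes with the best ranked members; genes of the Dpp pathway were named after their values were seen. Of the lists, *frs*, *Hsp67Bb* and *vfl* were matched by synonym.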

Additional observations from a re-analysis of the deposited data

How the results depend on the processing

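No paired analysis was possible because all 3 libraries belong to a single group. Over 22 settings, 409 of 442 alternative differences kept their direction and 33 reversed; none could pass a threshold with 3 libraries, or with 2, where the smallest exact p is 0.5. The number of members was 2330 with matches within 50 bp, 8110 within 200 bp, 7948 where the pooled summit had to lie inside an interval of each library, and 7005, 8192 and 8462 without replicates 1, 2 and 3. Genes with a member numbered 1811 for the gene body alone, 2297 within 1000 bp of a start, and 5265 to 5827 without 1 replicate. In all, 41 counts, most of them of genes per list, moved by over 1.5 times. Near starts, members minus weak unreproduced summits was 0.501 points when only ranks up to 15000 were kept.

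Most reversals concern members minus weak unreproduced summits within the ranges of rank chosen after seeing the data, in percentage points. At ranks 7406 to 10000 they were near a start -1.22, coding sequence 0.445, 5' UTR -1.62, TAATTA -0.311, CAGGTA -0.822, TATCGATA -0.441, CAGCTG -0.443 and GC content 0.323. At 10001 to 12000 they were near a start -2.47, coding sequence 0.59, 3' UTR 0.582, intron 3.14, intergenic -5.2, CAGGTA -1.03 and GC content 0.346. At 12001 to 15000 they were near a start -1.58, coding sequence 0.793, 5' UTR -1.53, other exon -0.751, intron 2.25, TAATGA -1.09, GGTCACAC -0.0455 and GC content 0.64. Members minus the IDR set reversed for TAATGA (0.229) and GGTCACAC (0.0571) in the first range and for 5' UTR (-0.0374) in the third. With all weak summits of rank 15000 or better, the difference from unreproduced summits was 0.0782 for coding sequence, -0.41 for 5' UTR, 0.746 for intron, -0.247 for CAGGTA and 0.232 for GC content. Other exon, members minus unreproduced, was -0.164 with matches within 50 bp and -0.00645 for members over 1000 bp from every IDR summit. The cause of these changes was not tested. Depth is unknown and sets no limit that can be given.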
